A study of Mus musculus with 32 samples.

Results

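CD4+ T cells stimulated for 48 h on macrophages that had been pretreated with IL-4 and IL-10 were compared directly with CD4+ T cells stimulated for 48 h in medium with little lysine. The 2 groups were taken by their sample titles and held 3 arrays each, 6 of the 32 arrays of the series and 6 of its 23 arrays at 48 h. All T cells came from the cervical and axial lymph nodes of Balb/c mice with the DO11.10 T cell receptor transgene, so that they recognise a peptide of ovalbumin (OVA), and both groups received that peptide. Macrophages from the peritoneal cavity, collected 3 days after thioglycollate, presented it in both groups. In the pretreated group the macrophages had received IL-4 and IL-10, at 10 ng/mL each, for 12 to 16 h before they were washed and given new medium, and the labels name no shortage. In the low lysine group the macrophages had received no cytokine, and the medium held lysine at 1% of the normal RPMI level. Viable CD4+ singlets were sorted and 100 ng of RNA was labelled for MoGene-2_0-st arrays. Levels are log2 values, differences are log2 fold changes of pretreated minus low lysine ± SE, and called genes are those with an adjusted p under 0.05 (limma, all genes of the platform, Benjamini-Hochberg). The question was where the effect of the pretreated macrophages departs from that of lysine shortage. It was asked without a shared control, since neither group serves as the other's reference.

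IL-4 drives macrophages into the alternatively activated state through STAT6, and such macrophages make arginase 1, which breaks down arginine in their surroundings. A T cell that lacks an amino acid accumulates uncharged tRNA, which activates the kinase GCN2 and, through it, the transcription factor ATF4 and its targets in amino acid supply. Lysine is no substrate of arginase 1, so a medium low in lysine is a shortage that those macrophages are not known to make.

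The 6 arrays correlated with r between 0.95 and 0.97 within a group and between 0.94 and 0.97 across the groups, and no 2 arrays were identical. The labels do not say whether replicates were separate cultures or animals, so p-values measure only the spread between samples. That spread was estimated over all 23 arrays at 48 h, not only over these 6. Submitters' sample identifiers number all low amino acid arrays in 1 consecutive series and the pretreated and full medium arrays in a later one. What that numbering marks is not stated, and it cannot be told apart from the groups. The genes of CD4 T cell identity differed little between the groups, which does not show how pure either sort was. None of 15 measured members was called by limma, while 2 were higher and 3 lower at an unadjusted p below 0.05. With quantile normalization 2 were called lower. The list's mean level was 9.69 to 9.97 on the pretreated and 9.74 to 9.93 on the low lysine arrays. Cd3e, a chain of the T cell receptor complex, differed by -0.04 (95% interval -0.31 to 0.23), and Cd4 by -0.31 (-0.60 to -0.01, adjusted p = 0.30).

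Of 22180 genes, 784 (3.53%) were called, 616 (2.78%) higher and 168 (0.757%) lower on pretreated macrophages, with a median difference of -0.04 over all genes. The groups of 3 arrays did not overlap for 3916 genes (17.7%). With quantile normalization the split became 508 higher and 248 lower. When only these 6 arrays were fitted, 116 genes were called, 107 higher and 9 lower, all of them among the 784. Without pretreated replicate 3 the count was 518. The largest differences lay with products of alternatively activated macrophages, interferon-inducible GTPases, metallothioneins and a potassium channel on the higher side, and were smaller on the lower side.

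**Figure D1:**
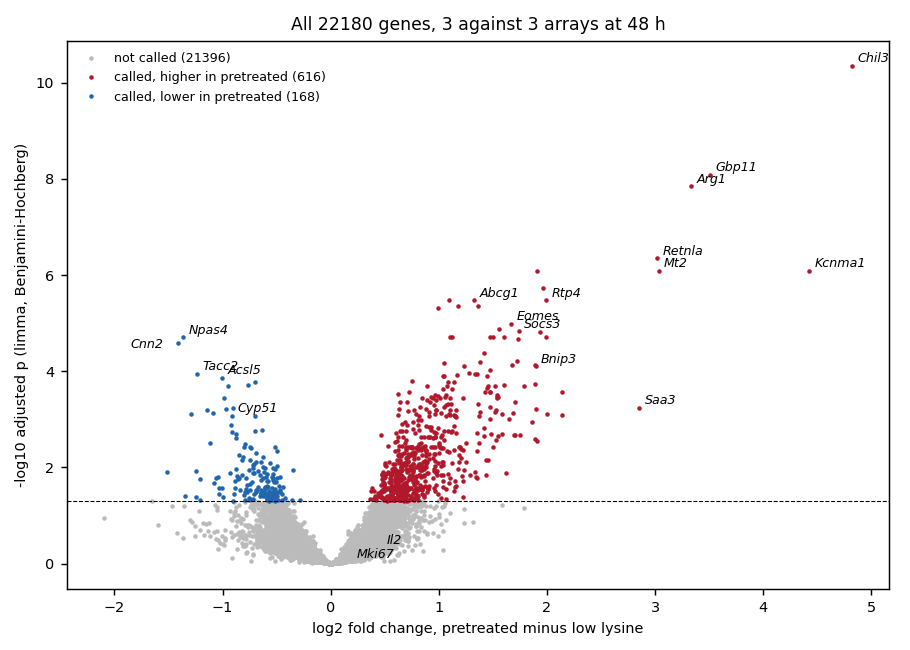
Each point is 1 of 22180 genes, with the log2 difference of pretreated minus low lysine on the x axis and -log10 of the adjusted p on the y axis. The dashed line marks an adjusted p of 0.05; the 616 genes called higher reach further from 0 than the 168 called lower, and Chil3 stands apart at 4.82.

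Chil3, Arg1 and Retnla, which IL-4 induces in macrophages, were among the 12 largest rises. Chil3, the chitinase-like protein Ym1, stood at 10.03, 10.42 and 9.59 on the pretreated arrays and at 5.17, 5.11 and 5.31 on the low lysine arrays. The groups lay far apart, and the low lysine arrays were level with the full medium arrays, which had 5.22, 4.71 and 5.30. Chil3 was thus higher by 4.82 ± 0.25 (adjusted p = 4.42e-11). The low lysine levels lay below the array medians of 5.49 to 5.58, and the files give no detection calls, so a level this low, here or in the genes below, is not shown to be above background and no fold is given. Retnla, the secreted protein RELMα, had levels of 7.02, 6.97 and 6.26 against 3.59, 4.49 and 3.11 and was higher by 3.02 ± 0.26 (adjusted p = 4.46e-07). Its full medium arrays, at 3.05 to 3.37, again sat with the low lysine arrays. Mrc1, the mannose receptor, was higher by 1.09 ± 0.22 (adjusted p = 0.00479).

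Arg1, which encodes arginase 1, gave 9.46, 10.29 and 9.21 on pretreated macrophages and 6.12, 6.71 and 6.13 in low lysine. It was higher by 3.33 ± 0.24, or 10.1-fold (adjusted p = 1.44e-08). Here the full medium arrays, at 8.19, 7.84 and 7.41, fell between the groups, while low arginine and low leucine gave means of 6.06 and 6.22. Of 14 measured genes of arginine and polyamine metabolism, 3 were higher and 2 lower. The mitochondrial arginase Arg2 was higher by 0.88 ± 0.18 (adjusted p = 0.00517) and Srm, spermidine synthase, lower (difference -0.71 ± 0.15, adjusted p = 0.00849). Nos2, the inducible nitric oxide synthase, was higher by 0.80 ± 0.20 (adjusted p = 0.0264), but that call was lost without any 1 low lysine array or without pretreated replicate 3 (adjusted p up to 0.161). Odc1, the first enzyme of polyamine synthesis, differed by -0.17 (-0.60 to 0.25).

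In all, 7 of 19 measured genes of alternatively activated macrophages were higher and none lower (1 at an unadjusted p below 0.05). The list's median difference was 0.19, so the signal sat in a few genes. Tgm2, tissue transglutaminase, gave 8.38, 9.20 and 10.08 against 6.44, 7.29 and 7.50 and was higher by 2.14 ± 0.32 (adjusted p = 0.000274). The full medium arrays were at 9.52 to 9.99, above 2 of the 3 pretreated arrays. In the fit of the 6 arrays alone, 3 of the 7 were called.

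**Figure D2:**
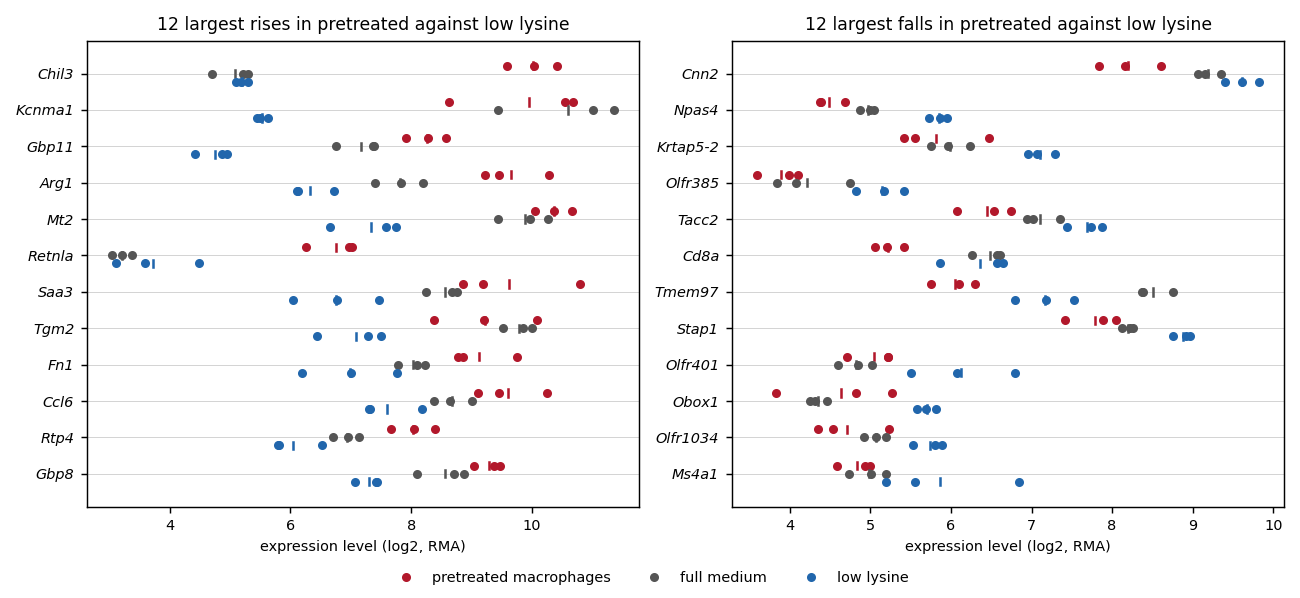
Levels (log2, x axis) of the 12 largest rises and 12 largest falls that the naming rule took, with 3 arrays a group as points and group means as bars. Chil3 and Retnla are high on the pretreated arrays and low in both other groups, while Kcnma1 and Mt2 are low in low lysine and high in the pretreated and full medium groups.

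General macrophage markers moved with these genes. Of 23 measured markers 13 (56.5%) were higher and none lower (none at an unadjusted p below 0.05 either), with a median difference of 0.79. The mean marker level was 7.42, 7.74 and 7.24 on the pretreated arrays, 6.71, 6.88 and 6.42 in low lysine and 6.85 to 6.95 in full medium. Thus the pretreated arrays stood above every low lysine and full medium array with antigen. Low lysine without antigen, at 7.14 to 7.55, overlapped the pretreated arrays. The count was 7 without low lysine replicate 3, 6 without pretreated replicate 2 and 2 in the fit of the 6 arrays alone. Lyz2, lysozyme, had levels of 11.31, 11.40 and 10.79 against 9.84, 10.30 and 9.11 and was higher by 1.42 ± 0.26 (adjusted p = 0.00223). Cybb, the catalytic chain of the phagocyte oxidase, was higher by 1.67 ± 0.22 (adjusted p = 7.45e-05), and Fcer1g, the common chain of Fc receptors, by 1.47 ± 0.25 (adjusted p = 0.000977). Csf1r, the receptor that defines the lineage, differed by 0.31 (-0.01 to 0.64, adjusted p = 0.335). In such bulk samples more cells of a type and more RNA per cell cannot be told apart, and the part that RNA of macrophages has in the results below was not tested.

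Saa3, Fn1 and Ccl6 were among the 12 largest rises too. Saa3, an acute phase serum amyloid, gave 9.19, 10.80 and 8.85 against 6.77, 6.04 and 7.47 and was higher by 2.85 ± 0.46 (adjusted p = 0.000577). Fn1, fibronectin, had levels of 8.78, 9.75 and 8.85 against 7.01, 7.76 and 6.19 (2.14 ± 0.36, adjusted p = 0.000794). For the chemokine gene Ccl6 the levels were 9.11, 10.25 and 9.45 against 7.30, 8.19 and 7.31 (2.00 ± 0.33, adjusted p = 0.000784). In all of these the pretreated replicate 2 array was the highest, as it was for the macrophage markers. Il23a, the p19 chain of IL-23, was chosen after its values were seen and gave 6.28, 7.64 and 7.42 against 5.58, 5.51 and 5.49 (1.59 ± 0.29, adjusted p = 0.00199).

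The guanylate-binding proteins (GBPs) are interferon-induced GTPases that attack intracellular microbes, and the immunity-related GTPases are their smaller relatives. Both families were taken whole after their values had been seen. Of 10 measured GBP genes 9 were higher on pretreated macrophages, with a median difference of 1.57, and the exception was Gbp6 at -0.12 (-0.67 to 0.44). Gbp11 had levels of 8.27, 8.58 and 7.91 against 4.96, 4.87 and 4.42. It was higher by 3.51 ± 0.24 (adjusted p = 8.2e-09), with the low lysine levels under the array medians. Gbp8 gave 9.38, 9.47 and 9.04 against 7.07, 7.41 and 7.43 (1.99 ± 0.23, adjusted p = 1.96e-05), and Gbp9 gave 8.42, 8.50 and 8.29 against 6.66, 6.40 and 6.43 (1.91 ± 0.18, adjusted p = 8.09e-07). The groups did not overlap for any of the 9, against 17.7% of all genes. Since the 9 are the called members of a family chosen by its values, that is no separate support. The folds of Gbp4, Gbp7, Gbp10 and Gbp2b were 3.33, 3.04, 2.88 and 2.14, each called in every fit that left out 1 array. Gbp3 (0.83 ± 0.19, adjusted p = 0.0110) lost its call without low lysine replicate 2 or pretreated replicate 1 or 2 (up to 0.0631). Gbp5 (0.68 ± 0.19, adjusted p = 0.0438) lost it without any array but low lysine replicate 3 (up to 0.209). GBPs are near-identical in parts, so that probe sets could share signal between members. In the fit of the 6 arrays alone, 5 of the 9 were called.

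The low lysine arrays were the ones that stood apart for the GBPs. The family's mean level was 8.56, 8.74 and 8.34 on pretreated macrophages, 8.40, 7.90 and 8.33 in full medium, and 6.99, 6.92 and 7.30 in low lysine. Low arginine and low leucine, with means of 8.21 and 7.86, were closer to full medium. Against low lysine, 9 of 10 members were also higher in low arginine, where 2.65% of all genes were called in that direction, 0.577% in the other and 3.22% in all, and Gbp11 was higher by 2.52. That comparison uses the same low lysine arrays. Of 5 measured immunity-related GTPases 3 were higher, led by Iigp1 at 8.89, 9.09 and 8.55 against 6.53, 6.60 and 7.66 (1.91 ± 0.36, adjusted p = 0.00281). Only 1 of the 3 was called without low lysine replicate 1 or 2, without pretreated replicate 2, or in the fit of the 6 arrays alone.

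**Figure D3:**
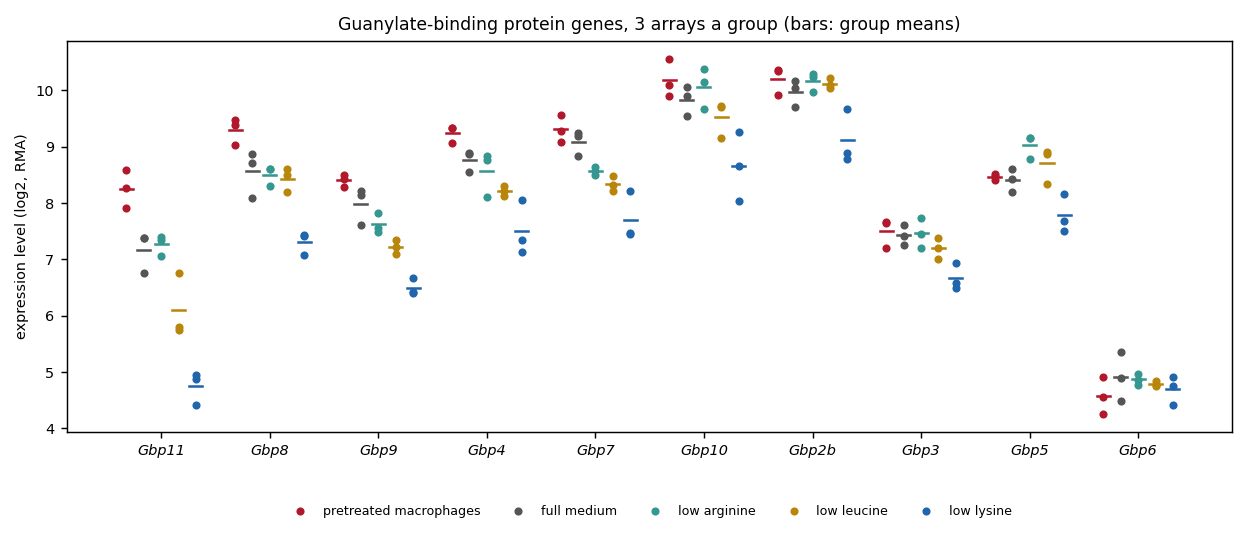
Levels (log2, y axis) of the 10 guanylate-binding protein genes in 5 antigen-stimulated 48 h groups, 3 arrays each as points and group means as bars. In 9 genes the low lysine arrays lie below the pretreated arrays, and Gbp6 shows no such gap.

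Among 23 measured interferon response genes, 9 (39.1%) were higher and none lower (1 at an unadjusted p below 0.05). The median difference was 0.49. The mean level was 6.88, 7.07 and 6.88 on pretreated macrophages, 6.91, 6.75 and 6.93 in full medium and 6.43, 6.40 and 6.41 in low lysine. Without pretreated replicate 2, 5 were called, and 3 in the fit of the 6 arrays alone. Rtp4, a receptor transporter induced by interferon, had levels of 8.04, 8.39 and 7.66 against 6.52, 5.79 and 5.81 (1.99 ± 0.20, adjusted p = 3.36e-06). Xaf1, a partner of apoptosis inhibitors, was higher by 1.47 ± 0.17, Usp18, which removes the ubiquitin-like ISG15, by 1.09 ± 0.17, and the transcription factor Irf7 by 1.05 ± 0.19 (adjusted p at most 0.00177). Ifng itself gave 4.72, 5.16 and 6.13 against 4.63, 5.05 and 6.77, a difference of -0.14 (-0.92 to 0.64).

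The promoters of these genes were searched for the core of the interferon-stimulated response element, GAAA and GAAA parted by any 2 bases, on either strand, in the 250 bases before the start site in RefSeq (GRCm38.p6). That core occurred in 2.98% of 32851 windows. Of the 20 called interferon response, GBP and immunity-related GTPase genes, 10 had a window in the table and 8 of those held it. Here and for the motifs below, a gene counted if any of its windows held the motif. The share of all windows counts each window singly, so the 2 are not the same measure. Gbp3 and Gbp7 neighbour each other on chromosome 3, at chr3:142559794-142560043 and chr3:142530086-142530335 for the windows, both on the + strand. They are shown because both belong to the family that moved together and carry the core close to the start, with the matches in capitals. Gbp3 has 2 windows, and the one shown was taken by its number of matches.
Gbp3: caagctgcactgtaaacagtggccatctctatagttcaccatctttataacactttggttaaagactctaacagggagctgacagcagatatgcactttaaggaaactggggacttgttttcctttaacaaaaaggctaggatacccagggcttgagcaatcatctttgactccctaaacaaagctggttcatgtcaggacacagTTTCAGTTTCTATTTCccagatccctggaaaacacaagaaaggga
Gbp7: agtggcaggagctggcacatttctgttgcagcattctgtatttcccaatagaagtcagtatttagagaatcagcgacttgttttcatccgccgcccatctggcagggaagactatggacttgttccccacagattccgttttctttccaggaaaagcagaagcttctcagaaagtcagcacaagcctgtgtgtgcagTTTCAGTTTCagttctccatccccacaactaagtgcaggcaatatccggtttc
The first match began 45 bases before the start in Gbp3, which holds 2 overlapping ones, and 53 bases before it in Gbp7. For the called genes of alternatively activated macrophages the STAT6 site, TTC and GAA parted by any 4 bases, found in 5.85% of windows, was present in 2 of the 5 that had a window. One was Retnla, at chr16:48842359-48842608 on the + strand, shown because it was low in full medium and in all 3 low amino acid media with antigen.
Retnla: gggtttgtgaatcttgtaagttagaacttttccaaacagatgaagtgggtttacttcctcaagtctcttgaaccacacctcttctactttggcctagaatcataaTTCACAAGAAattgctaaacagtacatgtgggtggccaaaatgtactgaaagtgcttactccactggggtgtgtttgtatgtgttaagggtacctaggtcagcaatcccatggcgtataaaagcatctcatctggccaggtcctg
These matches describe the letters and do not show a bound site. The motifs were picked after the values were seen.

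Metallothioneins bind zinc and copper, and their genes are induced by metals, glucocorticoids and oxidative stress. Mt2 gave 10.05, 10.36 and 10.66 on pretreated macrophages and 7.58, 6.65 and 7.75 in low lysine, a difference of 3.03 ± 0.28 or 8.18-fold (adjusted p = 8.09e-07). Mt1 had levels of 8.81, 8.80 and 9.0 against 7.38, 6.93 and 7.63 (1.56 ± 0.18, adjusted p = 1.31e-05). Both were high in full medium as well, with 9.43 to 10.27 for Mt2 and 8.69 to 9.39 for Mt1, and low in every low amino acid medium. The brain and epithelial members Mt3 and Mt4 differed by -0.15 (-0.55 to 0.25) and -0.13 (-0.57 to 0.30). The metal response element core, TGCACNC or TGCGCNC on either strand, occurred in 21.4% of windows and in both Mt1 and Mt2. The Mt2 window, at chr8:94172368-94172617 on the + strand, held 3 matches and is shown for its gene's 8.18-fold difference.
Mt2: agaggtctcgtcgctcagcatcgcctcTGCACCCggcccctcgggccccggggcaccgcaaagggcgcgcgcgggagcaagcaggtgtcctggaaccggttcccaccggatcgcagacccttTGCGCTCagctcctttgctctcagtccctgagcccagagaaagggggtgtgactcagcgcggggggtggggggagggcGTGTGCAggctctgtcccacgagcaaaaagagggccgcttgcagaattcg

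Kcnma1, the pore of the large-conductance calcium-activated potassium channel, showed the same division between media. Its levels were 10.68, 10.54 and 8.63 on pretreated macrophages, 11.01, 11.36 and 9.44 in full medium, and 5.63, 5.49 and 5.44 in low lysine. Low arginine and low leucine gave means of 5.70 and 5.53. The difference was 4.43 ± 0.41 (adjusted p = 8.09e-07), with the low lysine levels at about the array medians. For Kcnma1, Mt1 and Mt2 the pretreated and full medium arrays were high and the low amino acid arrays low, which is also the division of the submitters' numbering. Whether the medium or that numbering goes with it cannot be told apart.

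HIF-1 is the transcription factor that low oxygen stabilises, and its targets serve glucose use and survival without oxygen. All 14 measured targets had a difference above 0, and 9 (64.3%) were called higher, with a median of 0.66. The mean level was 8.78, 8.71 and 9.12 on pretreated macrophages, 8.57 to 8.68 in full medium, and 7.80, 7.98 and 8.35 in low lysine. Low arginine gave 7.92, 7.86 and 8.02 and low leucine 8.42, 8.15 and 8.48. The pretreated and full medium arrays thus stood above all low amino acid arrays with antigen. That is also the division of the submitters' numbering, and the 2 cannot be told apart. Of the low lysine arrays, replicate 3 was closest to the pretreated ones. The count was 4 without low lysine replicate 1, 5 without pretreated replicate 3 and 3 in the fit of the 6 arrays alone. Bnip3, a mitophagy receptor, had levels of 8.26, 8.06 and 8.70 against 6.08, 6.11 and 7.15 (1.89 ± 0.25, adjusted p = 7.84e-05). Ndrg1, a stress-induced growth regulator, was higher by 1.54 ± 0.23 (adjusted p = 0.000318) and Ero1a, an oxidase of protein folding, by 0.91 ± 0.19 (adjusted p = 0.00527). Mxi1, a MYC antagonist, was higher by 1.04 ± 0.23 (adjusted p = 0.0089), a call lost without low lysine replicate 1 (0.0573). Plod2, a lysyl hydroxylase of collagen, was the 1 called gene of 11 in lysine breakdown and carnitine synthesis and was 2.82-fold higher (adjusted p = 0.00371), while Aass, which starts lysine breakdown, differed by -0.27 (-0.63 to 0.10).

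The hypoxia response element core ACGTG, on either strand, occurred in 16.6% of windows and in 7 of the 8 called HIF-1 targets that had a window. It is shown for Bnip3, the largest rise of the list, whose window at chr7:138909507-138909756 on the - strand held it on both strands at 1 position.
Bnip3: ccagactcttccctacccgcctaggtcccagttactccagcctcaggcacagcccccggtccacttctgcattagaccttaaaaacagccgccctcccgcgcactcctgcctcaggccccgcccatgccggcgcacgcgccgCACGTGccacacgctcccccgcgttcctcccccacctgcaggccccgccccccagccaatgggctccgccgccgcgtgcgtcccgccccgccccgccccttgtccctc

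Of 16 measured genes of glycolysis and glucose uptake, 2 were higher, the glucose transporters Slc2a3 and Slc2a1. Slc2a3 gave 7.63, 8.36 and 9.32 against 6.79, 6.76 and 7.69 (1.36 ± 0.32, adjusted p = 0.0169), and Slc2a1 gave 9.87, 10.23 and 10.55 against 9.32, 9.41 and 10.00 (0.64 ± 0.17, adjusted p = 0.0362). The groups overlapped for both genes. The list's count was 0 without low lysine replicate 1, low lysine replicate 2 or pretreated replicate 3 in limma (8 members at an unadjusted p below 0.05 with all arrays), 1 without pretreated replicate 2, 4 without low lysine replicate 3 and 7 without pretreated replicate 1. The Slc2a3 call was lost without low lysine replicate 1 or 2 or pretreated replicate 3 (up to 0.129), and the Slc2a1 call without those arrays or pretreated replicate 2 (up to 0.212). Hk2, hexokinase 2, differed by 0.17 (-0.24 to 0.57). Idh1, the cytosolic isocitrate dehydrogenase that makes NADPH, was chosen after its values were seen. It gave 7.49, 7.30 and 7.09 against 5.93, 5.66 and 6.02 (1.42 ± 0.21, adjusted p = 0.000265) and was as high in full medium, at 7.36 to 7.60.

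Genes of naive and quiescent T cells were higher on pretreated macrophages. Of 18 measured members 6 (33.3%) were called, all higher, 17 had a difference above 0 and the median was 0.47. The mean level was 8.90, 9.06 and 9.11 on pretreated macrophages, 8.48 to 8.61 in full medium and 8.51, 8.44 and 8.40 in low lysine, with no overlap. S1pr1, the receptor that lets T cells leave lymph nodes, gave 8.85, 9.22 and 8.82 against 7.83, 7.48 and 7.04 (1.52 ± 0.22, adjusted p = 0.000201). Ccr7, the homing receptor to lymph nodes, gave 11.12, 11.67 and 11.51 against 10.43, 10.15 and 10.41 (2.15-fold, adjusted p = 0.000365). Txnip, which restrains glucose uptake, gave 10.21, 10.75 and 10.81 against 9.52, 9.81 and 9.07 (1.12 ± 0.16, adjusted p = 0.000234). Il7r, the IL-7 receptor, was higher by 1.04 ± 0.22 (adjusted p = 0.00755), a call lost without low lysine replicate 1 (0.0565). Klf2, a factor of quiescence, differed by 0.61 (0.22 to 1.0, adjusted p = 0.0757). In the fit of the 6 arrays alone 2 members were called. Txk, a kinase of the T cell receptor pathway chosen after its values were seen, gave 8.59, 8.71 and 8.97 against 7.54, 6.78 and 7.46 (2.82-fold, adjusted p = 1.96e-05).

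Some cell cycle brakes and survival genes were higher too. Of 14 measured brakes 4 were higher and none lower (none at an unadjusted p below 0.05). Ccng2, an atypical cyclin that slows division, gave 8.06, 8.31 and 8.87 against 6.54, 6.89 and 7.38 (1.48 ± 0.20, adjusted p = 9.22e-05). Cdkn1b, the inhibitor p27, gave 8.45, 9.21 and 9.07 against 7.98, 7.72 and 7.83 (1.07 ± 0.17, adjusted p = 0.000504). Trp53inp1 was higher by 0.83 ± 0.13 (adjusted p = 0.000546) and was the 1 brake called in the fit of the 6 arrays alone. Cdkn1a, the inhibitor p21, differed by -0.07 (-0.66 to 0.52). Of 14 measured BCL2 family genes 2 were higher, both of them survival factors. Mcl1 gave 10.73, 10.77 and 10.74 against 10.12, 9.93 and 10.07 (0.70 ± 0.11, adjusted p = 0.000429), and Bcl2 gave 11.14, 10.98 and 11.11 against 10.50, 10.26 and 10.40 (0.69 ± 0.12, adjusted p = 0.00113).

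Proliferation genes differed more within the groups than between their means. None of 32 measured G2/M and mitosis genes was called by limma (1 higher at an unadjusted p below 0.05), with a median of 0.00. Their mean level was 6.53, 6.66 and 7.96 on pretreated macrophages and 6.01, 7.07 and 8.11 in low lysine. The group means were 7.05 ± 0.79 and 7.07 ± 1.05 (SD, n = 3). Replicate 3 was the highest in both groups, and all 6 arrays lay below the full medium range of 8.90 to 9.02. Mki67, a marker of cycling cells, gave 7.92, 8.31 and 9.69 against 6.58, 8.99 and 9.76, a difference of 0.19 (-0.83 to 1.21). For Cdk1, the mitotic kinase, the difference was -0.26 (-1.17 to 0.66). None of 35 measured G1/S genes was called (3 lower at an unadjusted p below 0.05), but 2 were called lower with quantile normalization, 2 without low lysine replicate 1 and 3 without pretreated replicate 3. Nor was any of 12 histone genes called (1 higher at an unadjusted p below 0.05), though 1 was without low lysine replicate 3 or pretreated replicate 1.

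**Figure D4:**
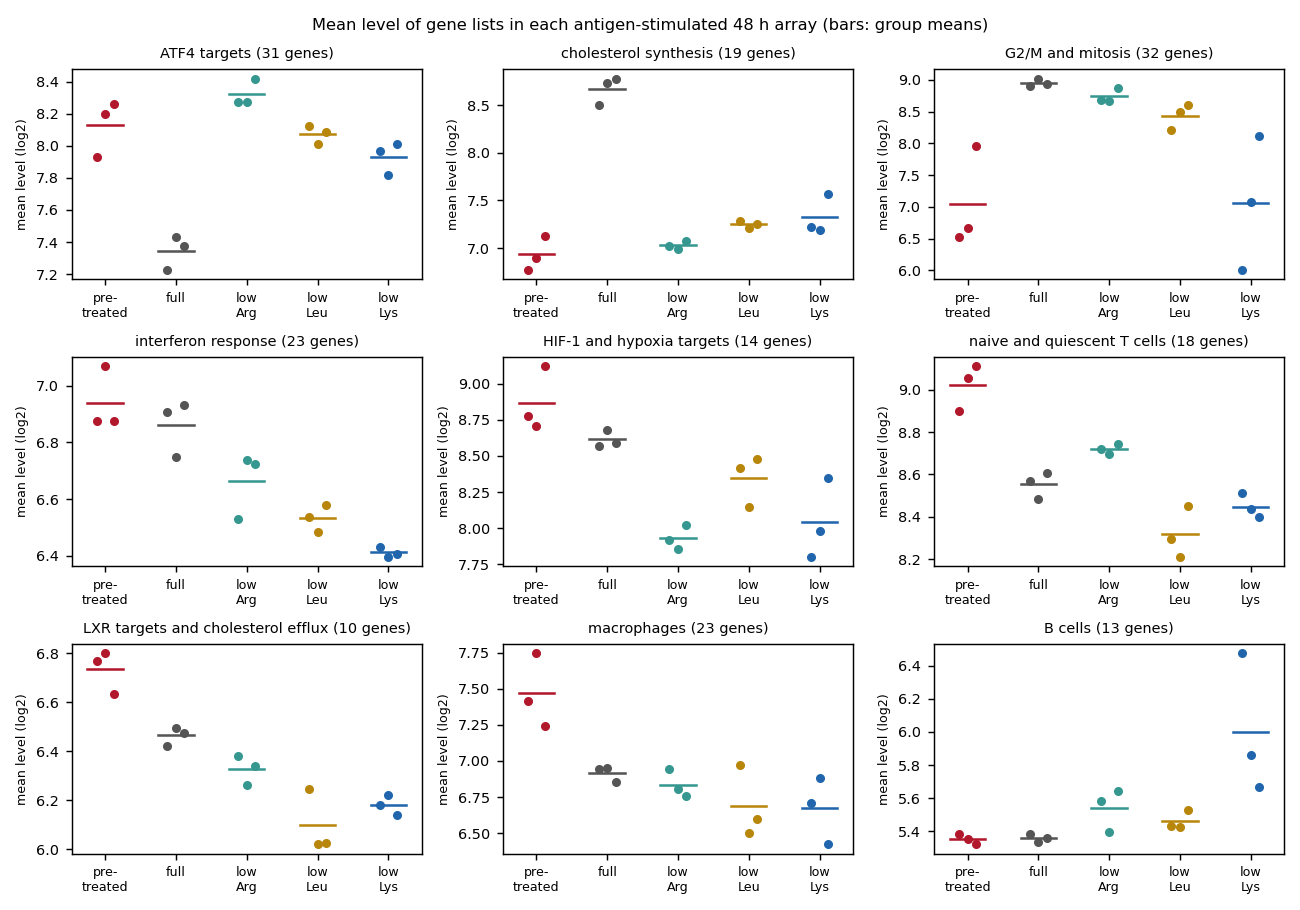
Mean level (log2, y axes of different range) of 9 gene lists on each of 15 antigen-stimulated 48 h arrays, with group means as bars. Interferon response, LXR target and quiescence lists separate the pretreated from the low lysine arrays, while G2/M genes spread over about as wide a range within both groups as between them.

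T cell activation genes differed little as a list, with a median of 0.08. Of 25 measured members 3 (12.0%) were higher and 1 (4.0%) lower, against 2.78% and 0.757% of all genes. In the fit of the 6 arrays alone limma called none (4 were higher and 1 lower at an unadjusted p below 0.05). Without low lysine replicate 1 no member was called by limma (4 were higher and 2 lower at an unadjusted p below 0.05 with all arrays), and without pretreated replicate 3 none was higher; 1 was higher without low lysine replicate 2 or pretreated replicate 2. Nr4a2, an early gene of receptor signalling, was higher by 0.89 ± 0.20 (adjusted p = 0.0131), a call lost without low lysine replicate 1 or pretreated replicate 3 (up to 0.073). Irf4, a factor induced in proportion to receptor signal, gave 9.89, 10.00 and 10.08 against 10.71, 10.36 and 10.54 (difference -0.55 ± 0.13, adjusted p = 0.0156), and its call was lost without low lysine replicate 1 or pretreated replicate 1 (up to 0.088). Il2ra and Cd69, surface marks of activation, differed by -0.03 (-0.30 to 0.24) and -0.03 (-0.29 to 0.23), and Myc by 0.08 (-0.15 to 0.31). Eomes, a T-box factor of memory and cytotoxic cells, was high on pretreated macrophages. It gave 8.28, 7.78 and 8.25 against 6.39, 6.17 and 6.74 (1.67 ± 0.19, adjusted p = 1.02e-05), with 7.12 to 7.58 in full medium. Of 20 measured inhibitory receptor and anergy genes 3 were lower, Pdcd1, Tox and Cd200, but 1 or none without any array but low lysine replicate 3. Pdcd1, which encodes PD-1, gave 6.57, 6.53 and 6.71 against 7.24, 7.78 and 7.37 (difference -0.86 ± 0.21, adjusted p = 0.0171), a call lost without low lysine replicate 2 or pretreated replicate 1 or 2 (up to 0.109).

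Among 24 measured helper cytokines and chemokines 4 were higher and none lower (3 at an unadjusted p below 0.05), and 2 were higher without low lysine replicate 1 or without low lysine replicate 2. Ccl4, a chemokine of activated T cells and macrophages, gave 9.55, 9.64 and 9.16 against 7.78, 7.79 and 8.44 (1.45 ± 0.20, adjusted p = 0.000128). Tnfsf8, the CD30 ligand, was higher by 0.71 ± 0.15 (adjusted p = 0.00603). Il21, a cytokine of follicular helper cells, gave 8.39, 7.83 and 8.15 against 6.05, 5.86 and 7.61 (1.62 ± 0.37, adjusted p = 0.0129), but lost its call without low lysine replicate 1 or 2 or pretreated replicate 1 (up to 0.0911). Ccl3 was higher by 1.00 ± 0.26 (adjusted p = 0.0357), with the call lost in all fits without 1 array but that without pretreated replicate 3 (up to 0.159). Il2, the T cell growth factor, had high levels in both groups, 11.39, 11.18 and 10.91 against 10.55, 10.51 and 11.02, above the full medium values of 8.55 to 9.54. The Il2 difference was 0.47 (-0.12 to 1.06, adjusted p = 0.454). Il4 differed by -0.47 (-0.97 to 0.02) and Csf2 by -0.08 (-0.60 to 0.44).

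Of the cytokine response lists, 5 of 15 genes of the IL-10, IL-6 and STAT3 response were higher and 1 of 17 of the IL-4 and STAT6 response in T cells. The latter was Il4ra, a chain of the IL-4 receptor (0.64 ± 0.17, adjusted p = 0.0328), whose call was lost without any array but pretreated replicate 1 (up to 0.149). Socs3, the feedback inhibitor that STAT3 induces, gave 8.88, 8.73 and 8.76 against 6.83, 6.75 and 7.57 (1.74 ± 0.20, adjusted p = 1.48e-05). Full medium, at 8.40 to 8.55, was nearer the pretreated arrays. Bcl3, a nuclear regulator of NF-κB, was higher by 1.03 ± 0.22 (adjusted p = 0.00766), a call lost without low lysine replicate 2 (0.0617). The count of 5 became 4, 2 and 3 without low lysine replicates 1, 2 and 3 and 8, 3 and 2 without pretreated replicates 1, 2 and 3. Gata3 and Socs1, which IL-4 raises in T cells, differed by 0.19 (-0.16 to 0.53) and 0.47 (0.11 to 0.83, adjusted p = 0.157). Bcl6, the follicular helper factor, was chosen after its values were seen and differed by 0.51 (0.15 to 0.87, adjusted p = 0.122). Of 14 regulatory T cell genes 4 were higher (2 without low lysine replicate 1 or 2 or pretreated replicate 2, 1 without pretreated replicate 3, 1 with quantile normalization and none in the limma fit of the 6 arrays alone, where 4 were higher at an unadjusted p below 0.05), while Foxp3, which defines those cells, differed by -0.30 (-0.66 to 0.05).

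Most measured ATF4 targets of the amino acid response were not called, but the share called higher was above that of all genes. The mean level of 31 measured ATF4 targets was 7.93, 8.20 and 8.26 on pretreated macrophages and 7.97, 7.82 and 8.01 in low lysine, and all 6 arrays lay above the full medium range of 7.23 to 7.43, a difference that was not tested. The tRNA synthetases, which ATF4 also drives, had mean levels of 9.22 on pretreated macrophages, 9.32 in low lysine and 9.35 in full medium. Of the 31, 4 were higher and none lower (2 at an unadjusted p below 0.05), 2 without low lysine replicate 2 or pretreated replicate 3, and 1 in the fit of the 6 arrays alone. The 4 were 12.9% of the list, against 2.78% of all genes called higher. The groups did not overlap, in either direction, for 13 of the 31, against 17.7% of all genes. Nupr1, a stress-induced chromatin protein, gave 9.13, 9.15 and 9.06 against 8.29, 7.85 and 8.02 (1.06 ± 0.18, adjusted p = 0.000836). Chac1, which degrades glutathione, gave 8.20, 8.52 and 8.78 against 7.83, 7.45 and 7.48 (0.91 ± 0.15, adjusted p = 0.000855). Asns, asparagine synthetase and a standard readout of the response, gave 9.87, 9.84 and 9.94 against 9.97, 10.01 and 10.29, a difference of -0.20 (-0.67 to 0.26). Trib3, Ddit3 and Sesn2, regulators of the same response, differed by 0.08 (-0.39 to 0.55), 0.26 (-0.09 to 0.61) and 0.03 (-0.49 to 0.55). Cth, which makes cysteine, differed by 0.60 (0.01 to 1.19, adjusted p = 0.308).

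Amino acid transporters and tRNA synthetases gave 1 call each, 1 of 17 higher and 1 of 17 lower. The lower one, the threonine synthetase Tars (-0.58 ± 0.16, adjusted p = 0.0429), lost its call without low lysine replicate 1 or 3 or pretreated replicate 2 or 3 (up to 0.173). Slc7a2, a transporter of arginine and lysine that macrophages use, had levels of 6.27, 6.15 and 6.21 against 4.90, 5.44 and 4.97 (1.11 ± 0.17, adjusted p = 0.000474). Its relatives Slc7a1 and Slc7a3, which carry the same amino acids, differed by 0.31 (0.03 to 0.60, adjusted p = 0.265) and -0.40 (-0.73 to -0.06, adjusted p = 0.217). All arrays of both groups lay above full medium for Slc7a3, whose full medium values were 6.12 to 6.48 against 8.02 or more. Slc7a11, the cystine transporter, differed by 0.35 (-0.03 to 0.74).

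Of 10 measured LXR target and cholesterol efflux genes, which answer to excess sterol, 5 (50.0%) were higher and none lower (none at an unadjusted p below 0.05). Their mean level was 6.77, 6.80 and 6.63 on pretreated macrophages and 6.18, 6.22 and 6.14 in low lysine. Full medium, at 6.42 to 6.50, fell between the groups, and low arginine and low leucine had means of 6.33 and 6.10. Low lysine without antigen, at 6.69 to 6.91, was about as high as the pretreated arrays. In the fit of the 6 arrays alone 4 of the 5 held. Abcg1, a cholesterol exporter, gave 8.42, 8.35 and 8.53 against 7.14, 7.40 and 6.77 (1.33 ± 0.14, adjusted p = 3.36e-06). Abca1, its partner in efflux, gave 7.54, 6.96 and 6.79 against 5.72, 5.95 and 5.79 (1.28 ± 0.17, adjusted p = 0.000109). Mylip, a ubiquitin ligase that LXR induces, gave 7.33, 7.28 and 7.25 against 6.50, 6.39 and 6.29 (0.89 ± 0.14, adjusted p = 0.000393). Pltp was higher by 0.99 ± 0.21 (adjusted p = 0.00797).

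In cholesterol synthesis, which low sterol turns on, 2 of 19 measured genes were lower and none higher (none at an unadjusted p below 0.05), and 18 of 19 had a difference below 0, with a median of -0.39. The mean level was 6.78, 6.90 and 7.13 against 7.22, 7.19 and 7.56, both far under full medium at 8.50 to 8.78. The groups did not overlap, although pretreated replicate 3 lay close to low lysine replicate 2. Cyp51, a sterol demethylase, gave 6.53, 6.50 and 6.61 against 7.03, 7.46 and 7.89 (difference -0.91 ± 0.15, adjusted p = 0.000849). Hmgcs1, an early step of the pathway, gave 7.46, 7.53 and 7.85 against 8.37, 8.19 and 8.68 (-0.80 ± 0.16, adjusted p = 0.00373). Neither was called in the fit of the 6 arrays alone, and 5 genes were called without low lysine replicate 2. Fdps differed by -0.74 (-1.19 to -0.29, adjusted p = 0.0591). Tmem97, a sterol-regulated membrane protein, had levels of 5.75, 6.09 and 6.30 against 6.80, 7.18 and 7.53 (-1.12 ± 0.21, adjusted p = 0.00307). The desaturases Scd1 and Fads2 were far under full medium in both groups. Fads2 gave 4.22, 4.99 and 4.70 against 4.59, 4.81 and 4.97, with 9.43 to 9.74 in full medium, a difference of -0.15 (-0.59 to 0.28). For Scd1 the difference was -0.38 (-0.98 to 0.22).

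Cpt1a, the gate of mitochondrial fatty acid oxidation, and Acsl5, which activates fatty acids, were chosen after their values were seen. Cpt1a gave 6.39, 6.62 and 6.71 against 7.21, 7.74 and 7.53 (difference -0.92 ± 0.16, adjusted p = 0.00133). Acsl5 gave 8.37, 8.22 and 8.73 against 9.17, 9.67 and 9.50 (-1.01 ± 0.14, adjusted p = 0.000135), and full medium, at 9.62 to 9.76, was with low lysine. Of 24 measured ribosome biogenesis genes 5 (20.8%) were lower, against 0.757% of all genes, and none higher (1 at an unadjusted p below 0.05). With quantile normalization 8 were lower and with arrays centred 2. In the fit of the 6 arrays alone limma called none (8 were lower at an unadjusted p below 0.05). Without low lysine replicate 3, 1 member was called higher. Bop1, an assembly factor of the large subunit, gave 6.94, 7.09 and 6.95 against 7.50, 7.66 and 7.69 (-0.62 ± 0.13, adjusted p = 0.00619). Rrp9, Utp20 and Rrp12 lost their calls without 3 or more of the arrays in turn (up to 0.141), and the count was 5, 3 and 1 without low lysine replicates 1, 2 and 3 and 3, 2 and 3 without pretreated replicates 1, 2 and 3.

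The remaining lists held 3 calls or fewer each in a direction, against 2.78% of all genes called higher and 0.757% lower. The called shares were 14.3% higher for autophagy and lysosome genes and 5.26% lower for oxidative phosphorylation. They were 12.5% lower for the unfolded protein response and 10.0% lower for MHC class II. For p53 targets and for fatty acid synthesis they were 6.25% in each direction. Such shares lay above those of all genes but rest on few members. Of 21 measured autophagy and lysosome genes 3 were higher, led by Ctsl, a lysosomal protease, at 10.82, 11.09 and 10.32 against 9.61, 9.22 and 8.98 (1.47 ± 0.23, adjusted p = 0.000546). Lamp2, a lysosomal membrane protein, was higher by 0.81 ± 0.16 (adjusted p = 0.00329) and Gabarap, a component of autophagosomes, by 0.61 ± 0.12 (adjusted p = 0.00281). Macrophages are rich in the first 2 products. Among 19 measured genes of oxidative phosphorylation 1 was lower, Cox6a1, a subunit of cytochrome oxidase (-0.51 ± 0.10, adjusted p = 0.00379). Of 16 genes of the unfolded protein response 2 were lower, Atf6 and Sdf2l1, and of 16 p53 targets Trp53inp1 was higher and Ei24 lower. Of these, Atf6 lost its call without any array but low lysine replicate 1 (up to 0.162), Sdf2l1 without low lysine replicate 3 or any pretreated array (up to 0.149) and Ei24 without low lysine replicate 2 or pretreated replicate 2 (up to 0.0647). No unfolded protein response gene was called by limma with arrays centred or in the fit of the 6 arrays alone (4 were lower and 1 higher at an unadjusted p below 0.05 with all arrays). Of 16 genes of fatty acid synthesis Elovl5 was higher, a call lost without any 1 of the 6 arrays (up to 0.163), and Fasn lower, a call lost without any array but low lysine replicate 2 (up to 0.134). Of 10 measured MHC class II genes 1 was lower, the master regulator Ciita (-0.58 ± 0.14, adjusted p = 0.0252), a call lost without low lysine replicate 1 or pretreated replicate 1 or 3 (up to 0.141).

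The 12 largest falls taken by the naming rule (called, without overlap of the groups) were smaller than the rises, with Cnn2 at -1.42 and Ms4a1 at -1.03 as their limits. Cnn2, an actin-binding calponin, led them with 7.83, 8.16 and 8.60 against 9.62, 9.82 and 9.40 (-1.42 ± 0.17, adjusted p = 2.55e-05). Npas4, an activity-dependent transcription factor best known from neurons, gave 4.39, 4.69 and 4.37 against 5.73, 5.86 and 5.95 (-1.36 ± 0.16, adjusted p = 1.97e-05). Tacc2, a centrosome protein, gave 6.08, 6.53 and 6.74 against 7.87, 7.44 and 7.74 (-1.23 ± 0.17, adjusted p = 0.000112), and Stap1, an adaptor of antigen receptor signalling, differed by -1.09 ± 0.18 (adjusted p = 0.000743). The rule also took the olfactory receptors Olfr385, Olfr401 and Olfr1034, the keratin-associated Krtap5-2 and the oocyte gene Obox1. These are tissue-restricted genes whose levels were 7.29 or lower on all 6 arrays. All of these calls but that of Krtap5-2 were lost without 2 or more of the arrays in turn (up to 0.156).

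B cell markers fell on pretreated macrophages, and this rested on the low lysine arrays. All 13 measured markers had a difference below 0, with a median of -0.65, and 5 (38.5%) were called lower, against 0.757% of all genes. In the fit of the 6 arrays alone limma called none (10 were lower at an unadjusted p below 0.05). Their mean level was 5.38, 5.35 and 5.32 on pretreated macrophages, 5.33 to 5.38 in full medium, and 6.47, 5.86 and 5.67 in low lysine. Low lysine replicate 1 stood highest. Without it limma called none (5 were lower at an unadjusted p below 0.05), and the counts were 3 and 6 without low lysine replicates 2 and 3 and 2, 1 and 2 without pretreated replicates 1, 2 and 3. Ms4a1, which encodes CD20, gave 4.59, 4.99 and 4.93 against 6.85, 5.55 and 5.19 (difference -1.03 ± 0.27, adjusted p = 0.0353), a call lost without low lysine replicate 1 or any pretreated array (up to 0.199). Cd8a, a chain of the CD8 coreceptor, gave 5.05, 5.20 and 5.41 against 6.64, 5.87 and 6.58 (-1.14 ± 0.18, adjusted p = 0.000625), and 2 of 12 CD8 T and NK cell markers were called, Cd8a lower and Eomes higher. The part that B cells in the low lysine sort have in the falls was not tested. Of the other lists of foreign cells, granulocyte and mast cell markers gave no call in 18 (none at an unadjusted p below 0.05 by limma), mesothelial and stromal markers none in 18 (4 higher), and dendritic cell markers 2 of 11 higher.

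The same pretreatment was measured at 72 h on separate arrays of another platform (HT_MG-430_PM), there against antigen in full medium, with 3 arrays a group. At 72 h 1656 of 17097 genes (9.69%) were called, 646 (3.78%) higher and 1010 (5.91%) lower. Of the 616 genes higher than in low lysine at 48 h, 536 were measured at 72 h, where 111 (20.7%) were higher and 14 (2.61%) lower. Those 111 were 17.2% of all genes higher at 72 h. Of the 168 lower at 48 h, 132 were measured, and 30 (22.7%) were lower and 3 (2.27%) higher at 72 h, the 30 being 2.97% of all genes lower at 72 h. With a replicate block at 72 h the 111 and 30 became 132 and 32. The 72 h count depended on single arrays: it was 1035 and 538 without full medium replicates 1 and 3 and 919 and 495 without pretreated replicates 1 and 3.

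Of 30 ATF4 targets measured at 72 h 20 were higher and of 14 genes of naive and quiescent T cells 7, while of 23 macrophage markers 1 was higher, with a median of 0.13. Nupr1 was higher there by 3.76 ± 0.29 (adjusted p = 7.96e-05), Il23a by 3.75 ± 0.34 (adjusted p = 0.000175) and Saa3 by 3.91 ± 0.61 (adjusted p = 0.0042). S1pr1 (2.18 ± 0.53), Txnip (1.46 ± 0.19), Rtp4 (2.09 ± 0.47), Fn1 (2.83 ± 0.62) and Slc7a2 (2.17 ± 0.47) were also called higher, with adjusted p between 0.00149 and 0.0269. Cyp51 was lower (-2.96 ± 0.22, adjusted p = 6.56e-05), and so was Hmgcs1 (-2.62 ± 0.35, adjusted p = 0.00179). Called in opposite directions at the 2 times, Mt1 was lower at 72 h (-2.31 ± 0.24, adjusted p = 0.000374), as were Tgm2 (-1.17 ± 0.32, adjusted p = 0.0421, and 0.0537 with the replicate block) and Idh1 (-1.46 ± 0.23, adjusted p = 0.00468). In these 3 the full medium arrays at 48 h had been as high as the pretreated ones, and the 72 h reference was full medium. Of the GBPs 1 of 6 measured at 72 h was higher, Gbp8 (0.99 ± 0.21, adjusted p = 0.0174), and Gbp4 differed by 0.14 ± 0.09 (adjusted p = 0.414). Chil3 was higher by 0.75 ± 0.15 (adjusted p = 0.0124) against 4.82 in the 48 h comparison. Arg1 differed by 2.15 ± 0.71 (adjusted p = 0.0851, and 0.0276 with the replicate block), Retnla by 0.35 ± 0.15 (adjusted p = 0.172) and Kcnma1 by 0.12 ± 0.09 (adjusted p = 0.493). Probes, time and reference group all differ between these comparisons, so sizes are given side by side only.

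**Figure D5:**
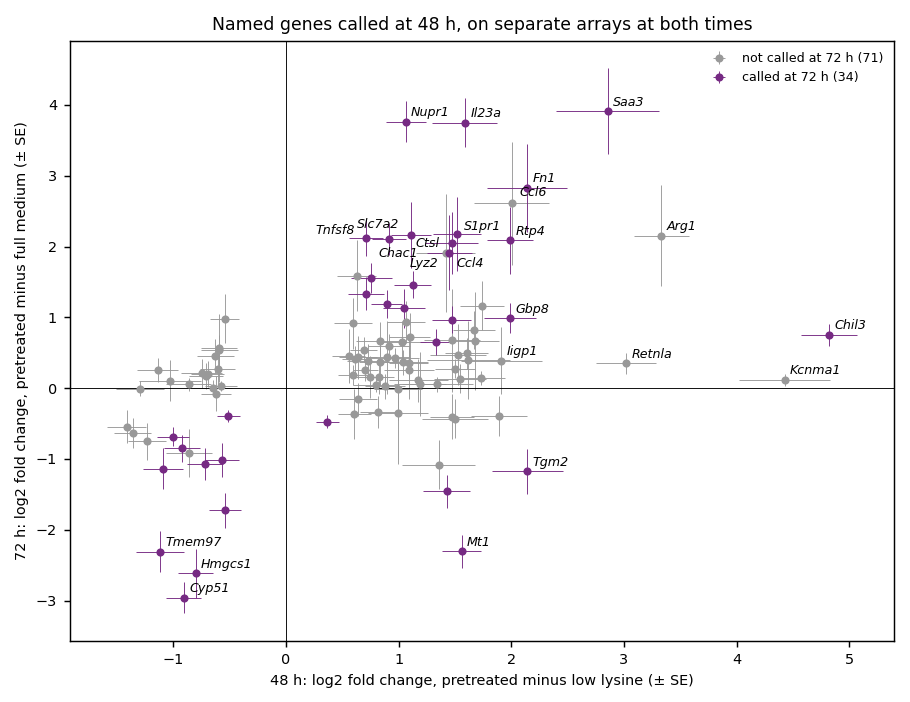
Log2 difference ± SE of 105 named genes called at 48 h (x axis, pretreated minus low lysine) and the difference of the same genes at 72 h (y axis, pretreated minus full medium). Of the 105, 34 were called at 72 h, 30 in the same direction and 4 (Mt1, Tgm2, Idh1 and Elovl5) in the opposite one.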

How the data were processed

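RNA of sorted CD4+ T cells was hybridised to MoGene-2_0-st arrays at 48 h and HT_MG-430_PM arrays at 72 h. The values are log2 expression as deposited by the authors, for which the submitters' processing notes name RMA and Affymetrix Expression Console 1.1; which arrays were normalized together is not given in the sources used here. RMA evens out array distributions, so a shift of all genes cannot be seen. Of 41345 probe sets at 48 h, 23521 name 1 gene, 1814 several and 16010 none in the platform annotation; those with 1 gene gave 22180 genes, each by its probe set of highest mean. At 72 h 28898 of 45037 probe sets gave 17097 genes. Gene names on arrays can be old.

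All groups of a platform were fitted together, which share 1 estimate of the spread, with limma 3.58.1 (lmFit, eBayes with an intensity trend) in R 4.3.3, two-sided, with Benjamini-Hochberg adjustment over all genes and a threshold of 0.05. The scripts were tested on simulated data. Tables and plots used Python 3.11.15, pandas 2.3.3 and matplotlib 3.10.9. Depth does not apply to arrays; their number limits the precision.

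Named genes were the 12 largest called rises and 12 largest called falls whose groups do not overlap (leaving out clone, model and receptor segment names), up to 4 called members of each of 37 gene lists by adjusted p, and a fixed set, of which some genes are not reported here. The members and lists were chosen with earlier results of these data known. The families, the motifs and the genes said so in the text were chosen after their values were seen. Promoter windows, the 250 bases before the start, are RefSeq's (GRCm38.p6); 84 of 119 named called genes matched one by identifier. At 72 h same-numbered arrays of the groups correlated at 0.261, 0.234 and 0.160 over 5000 genes, and arrays with unlike numbers at -0.262 to 0.0378. These correlations are weak, so whether the numbers pair the 72 h arrays is not settled either. The main 72 h fit has no replicate block, and values with that block are given as an alternative. Alternatives were other normalizations, filters, probe set rules, variance priors, sets of arrays and blocks.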

Additional observations from a re-analysis of the deposited data

How the results depend on the processing

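None of the 119 named called genes changed direction under any alternative run, which was in part fixed in advance. Where the groups do not overlap, leaving out 1 array cannot turn the difference. The fits of the 6 arrays alone and without the intensity trend leave the difference unchanged. For pretreated against low lysine the count of 784 called genes was 722 to 970 with arrays centred, quantile normalization, genes above the median level, all probe sets averaged or no intensity trend, and 518 to 945 without 1 array. It was 116 in the fit of the 6 arrays alone, which estimates the spread from fewer arrays and from these 2 groups only. For the mean level of G2/M genes their SD was 0.79 and 1.05. It was 0.06 to 0.20 in full medium, low arginine and low leucine. For macrophage markers the SD was 0.26 and 0.23 in the 2 groups and 0.05 to 0.25 in those 3. At 48 h arrays with the same number correlated at 0.0429, 0.0937 and 0.39, and arrays with unlike numbers at -0.304 to 0.226. Whether the numbers pair the 48 h arrays is thus not settled. The replicate block gave 979 calls, and 241 with only the compared groups. Of the 119 named called genes, 43 were called in the fit of the 6 arrays alone, 109 with quantile normalization and 89 to 100 without 1 array. In every fit without 1 array 72 were called. The 72 h count of 1656 was 1009 with only the compared groups, 495 to 2225 without 1 array and 1846 with the replicate block. Low arginine against low lysine, 715 calls, gave 139 with only the compared groups, 228 with the replicate block and only those groups, and 329 to 1021 without 1 array. The causes were not tested.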
